A study of Homo sapiens with 6 samples.

Results

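The cytosolic ribosomal protein genes code for the proteins of the large and the small subunit of the ribosome that works in the cytoplasm. They were chosen by symbol alone, as the probes whose gene symbol is RPL or RPS followed by a number, together with RPLP0, RPLP1, RPLP2 and RPSA where a probe carried that symbol. Kinases of the RPS6K family, the Y-linked copies of RPS4 and symbols of pseudogenes were left out. This gave 105 of 29377 probes and 74 of 19432 genes, of which 43 code for large subunit proteins, 24 for small subunit proteins and 7 for paralogs such as RPL26L1 and RPS27L. Signal was detected well enough to be tested for 97 of the 105 probes and 69 of the 74 genes, against 13323 of all 29377 probes and 9905 of all 19432 genes. Members that the array names by several symbols or by none were not analysed here.

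The study compared SNU638 cells, a gastric cancer cell line, that stably overexpress LAP2β (3 arrays) with mock cells of the same line that carry the empty vector (3 arrays). LAP2β is an isoform of the TMPO gene product and sits in the inner nuclear membrane, where it binds lamins. Both lines went through a transfection with a selection marker and G418 selection, LAP2β was driven by the cytomegalovirus promoter of its plasmid, and the sources do not say which clone was arrayed. The labels number the 3 arrays of each group 1 to 3 without saying whether they came from separate cultures, and p-values therefore rest on the spread among these 6 arrays, which may be technical. An array of a whole culture cannot tell a difference in each cell from a difference in the share of cells, and with 3 arrays against 3 an exact two-sided permutation test cannot go below p = 0.1.

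A ribosome carries one copy of nearly every ribosomal protein, and cells therefore keep the production of these proteins in step. In vertebrates the control is largely at translation. Their mRNAs begin with a C followed by a run of C and T (a terminal oligopyrimidine, or TOP, sequence), through which LARP1 and the mTOR pathway set how much of the mRNA is translated. An array measures the amount of mRNA and not its use, so that this layer of control was not measured here.

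The start sites show the sequence feature that ties these genes together. The promoter table (RefSeq, GRCh38.p14) held 62 of the 74 members, of which 57 were not paralogs. The 60 bases printed run from 40 bases before the start site to the 20 bases that begin at it, on the gene's own strand, and capitals mark the unbroken run of C and T from the first transcribed base. RPL34 and RPL14, with the highest log2 fold changes of the large subunit, are at chr4:108620536-108620595 (plus strand) and chr3:40457299-40457358 (plus strand). RPL39, with the longest run of those printed and 1 of the 4 lowest log2 fold changes of the large subunit, is at chrX:119791611-119791670 (minus strand). RPS6 at chr9:19380217-19380276 (minus strand), RPS12 at chr6:132814529-132814588 (plus strand) and RPS24 at chr10:78033823-78033882 (plus strand) are small subunit genes with such a start. RPS26 at chr12:56041878-56041937 (plus strand) and RPS29 at chr14:49598691-49598750 (minus strand) are shown because their annotated start has none. RPS27 at chr1:153990722-153990781 (plus strand) and its paralog RPS27L at chr15:63157458-63157517 (minus strand) show how the pair differ.
RPL34: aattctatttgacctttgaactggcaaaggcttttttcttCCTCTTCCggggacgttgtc
RPL14: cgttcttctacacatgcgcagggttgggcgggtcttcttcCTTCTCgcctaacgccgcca
RPL39: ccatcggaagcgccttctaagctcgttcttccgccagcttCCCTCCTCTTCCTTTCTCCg
RPS6: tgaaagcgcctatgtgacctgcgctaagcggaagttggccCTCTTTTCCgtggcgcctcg
RPS12: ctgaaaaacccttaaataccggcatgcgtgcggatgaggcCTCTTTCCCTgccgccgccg
RPS24: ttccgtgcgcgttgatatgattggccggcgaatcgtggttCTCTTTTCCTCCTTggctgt
RPS26: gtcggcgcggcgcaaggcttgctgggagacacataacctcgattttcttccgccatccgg
RPS29: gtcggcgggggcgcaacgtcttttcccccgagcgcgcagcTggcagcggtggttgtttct
RPS27: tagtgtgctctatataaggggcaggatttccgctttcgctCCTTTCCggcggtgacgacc
RPS27L: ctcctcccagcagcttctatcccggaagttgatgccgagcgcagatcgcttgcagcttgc

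The run of C and T was 8 bases in RPL34, 6 in RPL14, 19 in RPL39, 9 in RPS6, 10 in RPS12, 14 in RPS24 and 7 in RPS27. RPS26, whose annotated start base is G, and RPS29, whose start base is T followed by G, do not begin in this way in this annotation, which lists 1 start site for each gene. Among the 57 members, 39 (68.4%) began with C followed by at least 4 further C or T, against 4.07% of all 35116 promoters in the table. The share was 24 of 36 in the large subunit, 15 of 21 in the small subunit and 0 of 5 in the paralogs, and it was 5 of 69 (7.25%) among the mitochondrial ribosomal protein genes, whose products work in another ribosome.

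Other motifs were counted on both strands of the 300 bases from 250 before to 50 after the start. CCGGAAG, the core bound by ETS factors such as GABPA, was present in 33.3% of the 57 members and in 10.3% of all promoters. AAGATGGCG, the core of the YY1 motif, was present in 8.77% of members and in 1.75% of all promoters, and TCTCGCGA in 19.3% of members and 1.15% of all promoters. CCGGAAG ends with the AAG with which AAGATGGCG begins, so that 1 stretch can hold both, and a match is a description of the sequence only.

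None of the 97 ribosomal protein probes passed an adjusted p of 0.05 from limma in LAP2β cells against mock cells, in either direction. Over all 13323 probes tested, 146 (1.1%) were higher and 74 (0.555%) were lower. At an unadjusted p of 0.05 from limma, 8 member probes were higher (8.25%) and 0 were lower, against 6.47% higher and 6.97% lower among all probes. The lowest adjusted p of a member was 0.182, for RPL14. With the methods' t-test, 5 member probes were under an unadjusted p of 0.05 and 0 remained after Benjamini-Hochberg adjustment.

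Arrays with the same number deviated together in both groups, over all tested probes most clearly those numbered 1 and least those numbered 2. Over the member probes the correlations of deviations were 0.58, 0.28 and 0.16 for numbers 1, 2 and 3, so that number 3 was weakest. The fit was therefore repeated with the replicate number as a block. It called 3 member probes higher (3.09%) and 0 lower at an adjusted p of 0.05, against 3.39% higher and 2.77% lower among all probes. The 3 probes belong to RPL34, RPL14 and RPS29. The share called higher is close to that of all probes, so that it is not a result about ribosomal protein genes as a group.

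The sign of the differences was uneven. The log2 fold change, LAP2β minus mock, was above 0 in 71 of 97 member probes (73.2%), against 47.5% of all probes, but in 33% of member probes when the arrays were scaled to a common median and in 27.8% with no normalization between arrays. Those scalings move the median of all 13323 tested probes to -0.13 and -0.14, against -0.0082 with quantile normalization. The common median was taken over all 29377 probes of each array, most of which were not detected, and not over the tested ones. The members' median, 0.025 over 65 genes with paralogs left out, became -0.037 and -0.052, and it lay above the median of all probes by 0.033 with quantile normalization and by 0.089 under either of the other scalings. A direction for these genes is thus relative to the rest of the array.

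The large subunit genes had a median log2 fold change of 0.060 over 41 genes, with 32 above 0, and the small subunit genes a median of -4e-04 over 24 genes, with 12 above 0, against a median of -0.0068 over all 9905 genes. Under median scaling these medians were -0.034 for the large subunit and -0.064 for the small subunit. The large subunit median was 0.034 without LAP2β replicate 1 and 0.038 without mock replicate 3, and up to 0.072 when another array was left out. The small subunit median ranged from -0.0086 to 0.013 in the same way. The range was -0.058 (RPL19) to 0.42 (RPL34) in the large subunit and -0.051 (RPS15) to 0.17 (RPS26) in the small subunit. Standard errors of single genes were 0.082 to 0.17. The widest bounds of the 95% intervals were -0.29 and 0.75 over the 65 genes, the lower one from RPS28 and the upper one from RPL34.

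**Figure D1:**
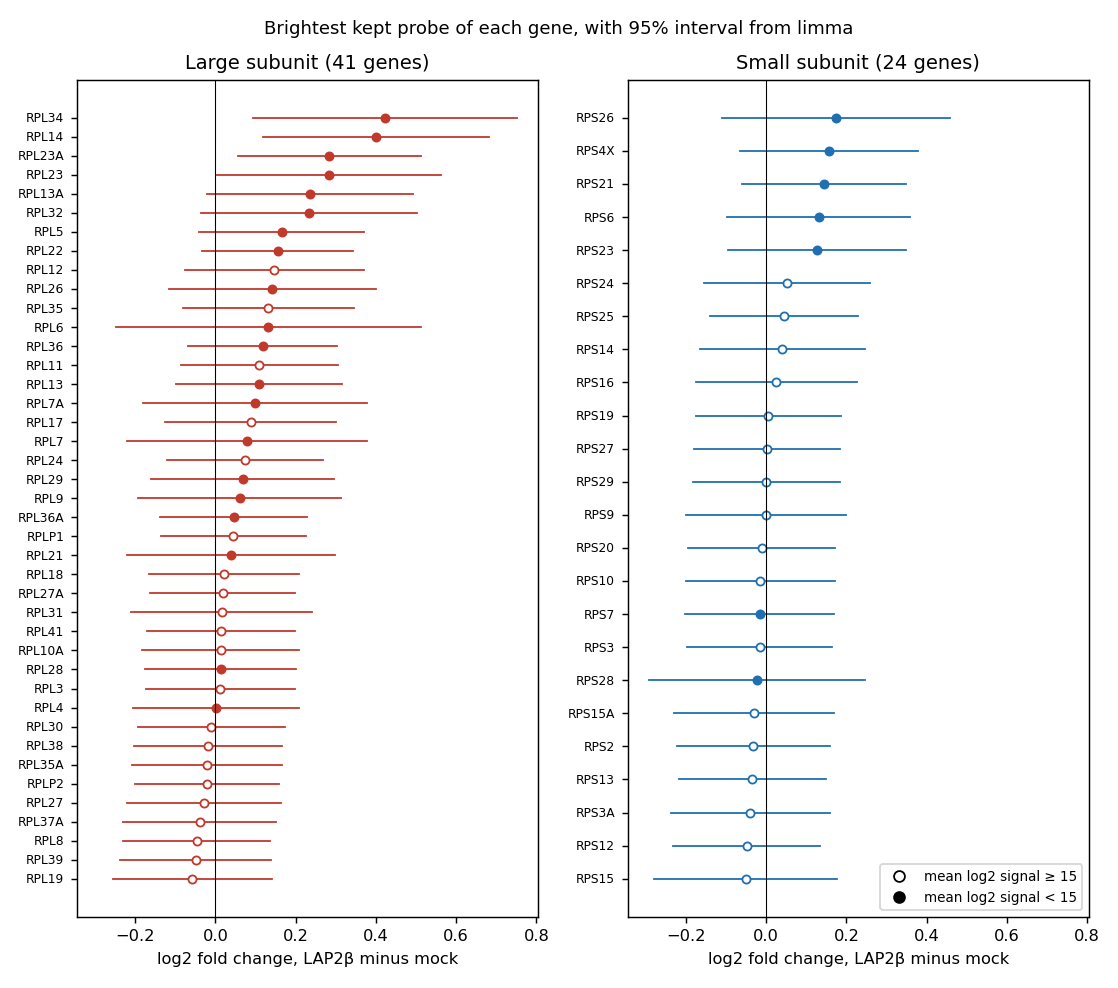
Log2 fold change (LAP2β minus mock, x axis) of the brightest tested probe of each gene, with its 95% interval from limma, for 41 large subunit genes (left) and 24 small subunit genes (right). Open points have a mean log2 signal of 15 or more, and they lie closer to 0 than most filled points. RPL34 reached 0.42 and RPL19 -0.058, and the points as a whole shift to the left when arrays are scaled to a common median.

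Among large subunit genes, RPL34, a protein of the large subunit, had the highest difference. Its brighter probe gave log2 signals of 12.71, 13.06 and 13.11 in LAP2β cells, against 12.21, 12.70 and 12.70 in mock cells. All 3 LAP2β arrays were above all 3 mock arrays, the closest being LAP2β replicate 1 and mock replicates 2 and 3, and the array numbered 1 was the lowest in both groups. The log2 fold change was 0.42 ± 0.15 (SE, n = 3 each, adjusted p = 0.228 from limma, 0.0076 with the replicate block, and up to 0.478 in the other settings). The dimmer RPL34 probe showed 10.79, 10.81 and 11.08 in LAP2β cells, against 10.50, 10.63 and 10.61 in mock cells, again without overlap. Its log2 fold change was 0.31 ± 0.10 (SE, adjusted p = 0.190 from limma, 0.0507 with the replicate block).

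RPL14, another protein of the large subunit, gave 11.23, 10.91 and 11.23 in LAP2β cells, against 10.95, 10.71 and 10.52 in mock cells. The groups overlapped, since LAP2β replicate 2 was below mock replicate 1, whereas LAP2β was higher in each of the 3 numbered pairs. The log2 fold change was 0.40 ± 0.13 (SE, adjusted p = 0.182 from limma, 0.0371 with the replicate block, and up to 0.467 in the other settings). A second RPL14 probe differed by 0.19 ± 0.10 (SE, adjusted p = 0.449). Its groups did not overlap, but LAP2β replicate 2 (10.103) and mock replicate 2 (10.095) nearly touched.

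RPL23A, which lies at the exit of the tunnel through which the new protein leaves, gave 12.03, 11.85 and 12.18 in LAP2β cells, against 11.79, 11.77 and 11.65 in mock cells. The groups did not overlap, although the lowest LAP2β array and the highest mock array were close. The log2 fold change was 0.28 ± 0.10 (SE, adjusted p = 0.245 from limma, 0.104 with the replicate block). RPL23, known also as a binding partner of MDM2, gave 14.38, 14.29 and 14.69 in LAP2β cells, against 14.35, 14.18 and 13.98 in mock cells. Here the difference rested mostly on the arrays numbered 3, which were the highest in LAP2β cells and the lowest in mock cells. It came to 0.28 ± 0.13 (SE, adjusted p = 0.361). The signs of RPL34, RPL14, RPL23A and RPL23 were positive in each of 18 processing settings tried, but their size was not constant. Several of these settings changed only the probe filter or the error estimate, and so could not move a log2 fold change. With no normalization between arrays the log2 fold changes were 0.25 for RPL34, 0.22 for RPL14, 0.10 for RPL23A and 0.14 for RPL23. Without mock replicate 1 that of RPL34 was 0.26, and that of RPL23 was 0.17 without LAP2β replicate 3 and 0.19 without mock replicate 3.

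RPL5 and RPL11, which join the ribosome together with the smallest RNA of the large subunit and also bind MDM2, differed by 0.17 and 0.11 in the log2 fold change. Neither was chosen by the rule for named genes, and they are given for that known role. At the other end of the large subunit were RPL19, RPL39, RPL8 and RPL37A. RPL39 lines the exit tunnel and RPL8 lies close to the site where the peptide bond is made. Their log2 fold changes were -0.058 for RPL19, -0.050 for RPL39, -0.047 for RPL8 and -0.040 for RPL37A, with standard errors of 0.084 to 0.090 and overlapping groups. Each of these 4 probes had a mean log2 signal above 15.

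**Figure D2:**
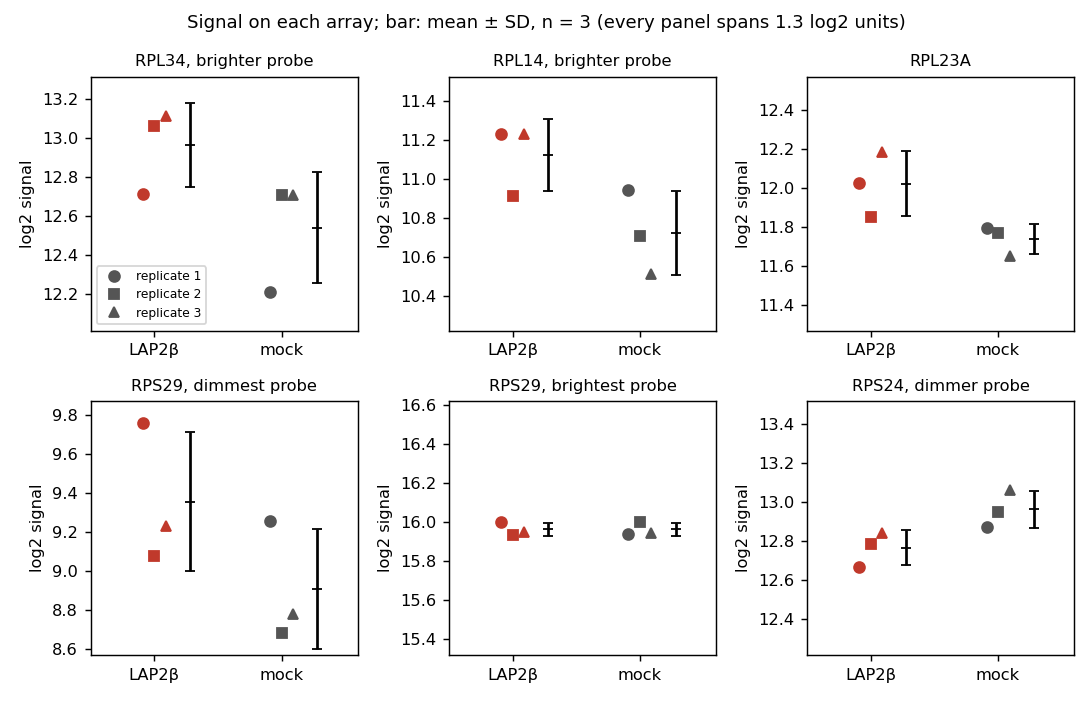
Log2 signal (y axis, each panel spanning 1.3 log2 units) of 6 probes on the 3 LAP2β arrays and the 3 mock arrays, with marker shapes for the replicate number and bars for the mean ± SD (n = 3). The brighter RPL34 probe and RPL23A show no overlap between groups, the dimmest RPS29 probe is higher in LAP2β cells within each replicate number, the brightest RPS29 probe sits near 16 in both groups, and the dimmer RPS24 probe is lower in LAP2β cells.

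In the small subunit the 4 highest log2 fold changes were those of RPS26, RPS4X, RPS21 and RPS6, and none of them came near the threshold. RPS26, which contacts the mRNA where it leaves the ribosome, gave 12.70, 12.80 and 12.82 in LAP2β cells, against 12.30, 12.66 and 12.85 in mock cells. The mock arrays spanned the LAP2β ones, and the log2 fold change was 0.17 ± 0.13 (SE, adjusted p = 0.609). RPS6, the protein phosphorylated by the S6 kinases, gave 14.51, 14.45 and 14.72 in LAP2β cells, against 14.56, 14.38 and 14.35 in mock cells. Again the groups overlapped, with a log2 fold change of 0.13 ± 0.10 (SE, adjusted p = 0.635). RPS4X differed by 0.16 ± 0.10 and RPS21 by 0.14 ± 0.09 (SE, adjusted p = 0.546 for both). The signs of RPS26, RPS21 and RPS6 turned with no normalization between arrays.

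The 4 lowest in the small subunit were RPS15 (-0.051), RPS12 (-0.049), RPS3A (-0.040) and RPS13 (-0.035), each with overlapping groups and a standard error of 0.083 to 0.10. RPS15 reaches toward the decoding site with its tail. RPS12 gave 15.94, 15.88 and 15.94 in LAP2β cells, against 15.999, 15.94 and 15.97 in mock cells. These values lie at the very top of the scale, whose highest value after normalization is 15.999.

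Many members lay near the top of that scale. Of the 107 tested probes with a mean log2 signal of 15 or more, 45 (42.1%) were ribosomal protein probes. Members made up 97 of all 13323 tested probes. Brightness of one probe cannot be set against another as an amount of mRNA, but it shows where on the scanner's range a probe was read. At 15 or more the log2 fold changes of all probes had an SD of 0.076, against 0.18 between 12 and 15 and 0.20 below 12, and 0 of the 107 probes passed an adjusted p of 0.05 from limma (2 at an unadjusted p of 0.05). The edges of 12 and 15 were set after the values had been seen.

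The median of the members was lower among the brightest probes, while that of all probes stayed near 0. Below 12, the 20 member probes had a median log2 fold change of 0.13, with 19 above 0, against a median of -0.0096 over 11836 probes of that brightness. Between 12 and 15, the 32 member probes had a median of 0.11, with 27 above 0, against 7e-04 over 1380 probes. At 15 or more, the 45 member probes had a median of 0.0048, with 25 above 0, against 0.0012 over 107 probes.

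The 2 subunits did not have the same share of bright probes. The brightest probe was at 15 or more in 21 of 41 large subunit genes (51.2%) and in 17 of 24 small subunit genes (70.8%). Among the bright genes the median log2 fold change was 0.014 in the large subunit and -0.012 in the small subunit. Among the others it was 0.12 over 20 large subunit genes and 0.13 over 7 small subunit genes. When probes at 15 or more were left out, a comparison chosen after seeing the data, the large subunit median was 0.12 over 24 genes, the small subunit median 0.13 over 13 genes and their difference -0.0023, against 0.060 with all genes. That comparison rests on fewer genes, some of them read by a dimmer probe, and the part of brightness in the difference between subunits was not tested.

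**Figure D3:**
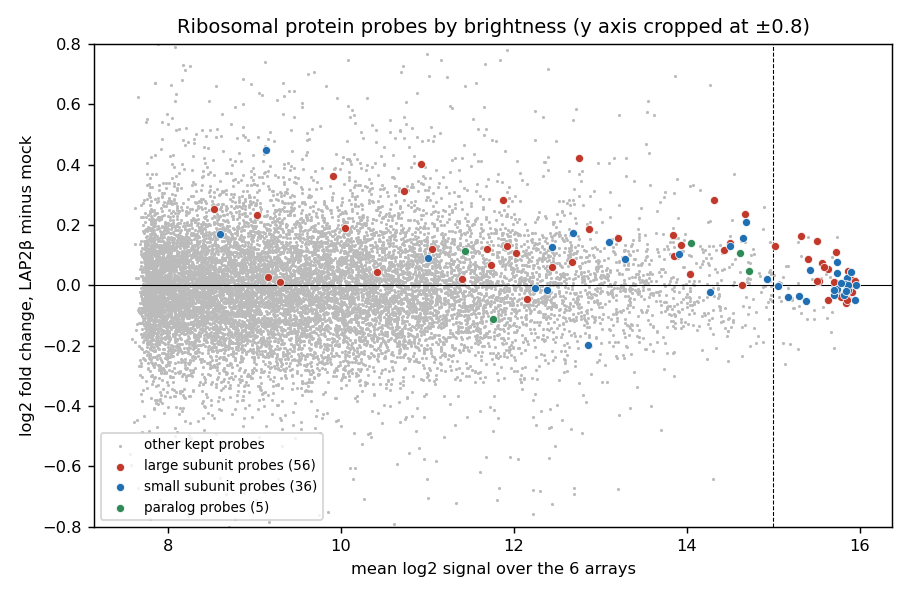
Log2 fold change (LAP2β minus mock, y axis, cropped at 0.8 on either side of 0) against the mean log2 signal over the 6 arrays (x axis) for all tested probes (grey), with 56 large subunit probes (red), 36 small subunit probes (blue) and 5 paralog probes (green). The dashed line marks a log2 signal of 15, beyond which 45 of 107 probes are ribosomal protein probes and the scatter narrows. Left of it most member probes lie above 0, a position that drops with the whole cloud under median scaling.

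Array by array, the median deviation of the large subunit genes from their own means over the 6 arrays was 0.038, 0.0092 and 0.015 in LAP2β cells, against 0.024, -0.071 and -0.047 in mock cells. The small subunit genes showed 0.015, -0.0080 and -0.0050 in LAP2β cells, against 0.028, -0.021 and -0.0034 in mock cells. Within each subunit the groups overlapped. Mock replicate 1 lay among the LAP2β arrays for the large subunit and above all of them for the small subunit, where mock replicate 3 lay among them. The difference between the subunits, large minus small, was 0.023, 0.017 and 0.020 in LAP2β cells, against -0.0039, -0.051 and -0.044 in mock cells. It was the higher on all 3 LAP2β arrays and fell below 0 on the 3 mock arrays, with mock replicate 1 close to 0. The difference of the medians without the bright probes is given above.

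**Figure D4:**
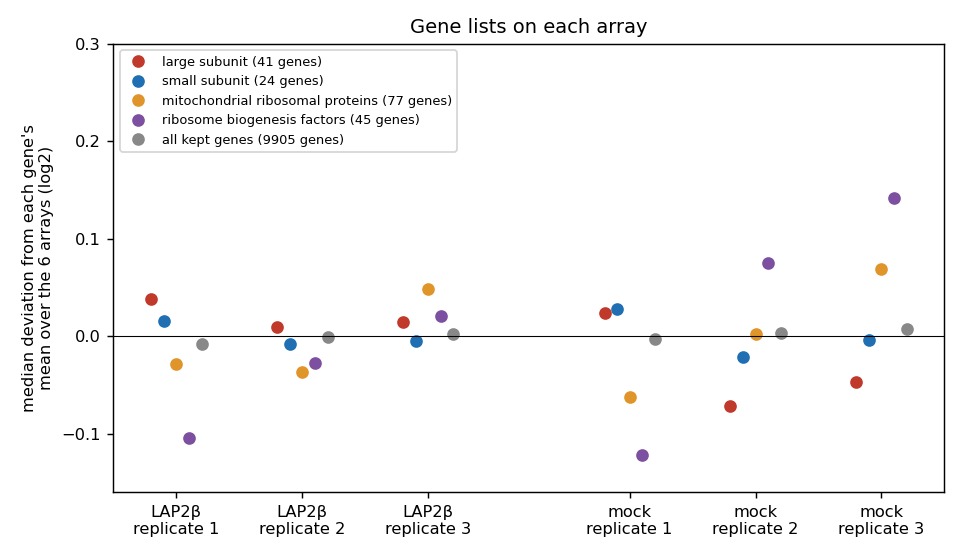
Median deviation (y axis, log2) of the genes of each list from each gene's mean over the 6 arrays, for the 3 LAP2β and the 3 mock arrays, after quantile normalization. Large subunit genes (red) lie between -0.071 and 0.038, small subunit genes (blue) between -0.021 and 0.028, and ribosome biogenesis factors (purple) move over a wider range, from -0.12 to 0.14, with mock replicate 1 lowest.

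Taken before normalization, ribosomal protein probes carried 9.68%, 9.28% and 9.21% of the summed signal in LAP2β cells, against 9.24%, 8.48% and 8.91% in mock cells. Mock replicate 1 fell among the LAP2β arrays, so that the groups overlapped. The arrays had median signals of 190 to 196 in LAP2β cells and 192 to 200 in mock cells before normalization. In LAP2β cells 44.1% to 44.6% of probes were detected, against 45.7% and 46.6% on mock replicates 1 and 2. The share of mock replicate 3, 44.6%, is no measurement, since its detection was set from the curve of the other arrays.

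Counted over probes, all 3 LAP2β arrays were above all 3 mock arrays in 9 member probes (9.28%), against 8.83% of all probes, and below them in 1 (1.03%), against 10.2% of all probes. The 9 probes were both of RPL34 and 1 each of RPL14, RPL22, RPL23A, RPL26L1, RPL32, RPL36 and RPLP1, a protein of the acidic stalk. None was a small subunit probe. The single probe below was the dimmer one of RPS24. In the numbered pairs, 31 member probes (32%) were higher in LAP2β cells in all 3 pairs, against 20.2% of all probes, and 6 (6.19%) were lower in all 3, against 22.6%. All these counts were taken after quantile normalization. They were not computed under the other scalings, which lower the log2 fold changes of members and of all probes.

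These genes also varied with the replicate number. The spread between the means of the 3 numbers, a range that by its construction tends to exceed a difference of 2 means, was larger than the log2 fold change in 77 of 97 member probes (79.4%), and in 70.9% of all probes. The median spread between numbers was 0.12 over the members, with a median size of the log2 fold change of 0.058. RPL6, chosen after its values were seen, showed it plainly, with 11.76, 12.10 and 12.11 in LAP2β cells, against 11.42, 11.99 and 12.16 in mock cells. Its arrays numbered 1 were the lowest in both groups, and its log2 fold change was 0.13 ± 0.17 (SE, adjusted p = 0.801).

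For 24 genes more than 1 probe was tested, and in 17 of them the dimmest probe had a higher log2 fold change than the brightest. The sign differed between probes in 5 genes, RPS29, RPS24, RPS15A, RPS15 and RPL38. The spread was widest in RPS29, which codes for a zinc-binding protein of the small subunit head. Its dimmest probe gave 9.76, 9.08 and 9.23 in LAP2β cells, against 9.26, 8.68 and 8.78 in mock cells. LAP2β was higher by 0.40 to 0.50 in each numbered pair, but the groups overlapped, because mock replicate 1 was above LAP2β replicates 2 and 3. The log2 fold change was 0.45 ± 0.18 (SE, adjusted p = 0.309 from limma, 0.0047 with the replicate block, and up to 0.694 in the other settings).

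The other 3 RPS29 probes read near the top of the scale and differed by 0.079, 3e-04 and -0.017. The brightest of them gave 15.999, 15.93 and 15.95 in LAP2β cells, against 15.94, 15.999 and 15.94 in mock cells, with full overlap. The probes of RPS29 were designed to 2 transcript accessions, and both the dimmest probe and the one at 0.079 are listed under the same accession. Whether the dimmest probe reads a separate transcript was not tested.

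RPS24 codes for a small subunit protein and is spliced into several transcripts. Its dimmer probe gave 12.67, 12.78 and 12.84 in LAP2β cells, against 12.87, 12.95 and 13.06 in mock cells, so that the 3 LAP2β arrays were below all mock arrays. The log2 fold change was -0.20 ± 0.09 (SE, adjusted p = 0.402). The brighter probe, listed under another transcript accession, differed by 0.052 ± 0.094 (SE, adjusted p = 0.867). For RPL36 the dimmer probe gave 10.04, 10.05 and 10.19 in LAP2β cells, against 9.36, 9.71 and 10.12 in mock cells. The 3 mock arrays ranged widely and the highest of them overlapped with LAP2β cells, the log2 fold change being 0.36 ± 0.16 (SE, adjusted p = 0.346) against 0.12 for the brighter probe.

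Of the 7 paralogs, which are copies outside the standard set and often of narrower expression, 4 were tested. RPL7L1, a nucleolar relative of RPL7, differed by -0.11 ± 0.10 (SE, adjusted p = 0.666), and RPL7 by 0.078 ± 0.14 (SE). RPL26L1 differed by 0.11 and RPL26 by 0.14, RPL36AL by 0.048 and RPL36A by 0.046, and RPS27L, a target of p53, by 0.11 and RPS27 by 0.0012. None of these passed the threshold in either member of a pair. RPL3L, RPL10L and RPL39L, which are known from muscle, testis and other restricted tissues, were not detected on enough arrays. RPL22L1 was not analysed here.

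Not every standard gene could be tested. The 2 probes of RPL10, a protein next to the catalytic centre, were detected on 0 of 6 arrays, with mean log2 signals of 6.99 and 7.09 in LAP2β cells, against 6.94 and 7.12 in mock cells. The probe of RPL37 was also detected on 0 arrays, with 7.23 in both groups. Such values say only that these probes were not above background, and no fold change is given.

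Genes that make or control ribosomes were described beside the members, from lists of known roles. Of 77 tested mitochondrial ribosomal protein symbols, 1 of them an antisense transcript (MRPL20-AS1), 0 were higher and 1 lower at an adjusted p of 0.05 from limma, and their median log2 fold change was 0.0059. The median was 0.011 over 50 symbols of their large subunit, with 62% above 0, and -0.034 over 27 of their small subunit, with 33.3% above 0. A higher large than small subunit median was thus not particular to the cytosolic genes. The symbol called lower was MRPL13, with 11.49, 11.52 and 11.59 in LAP2β cells, against 11.90, 12.002 and 11.90 in mock cells. Its groups were well apart, and the log2 fold change was -0.40 ± 0.09 (SE, adjusted p = 0.0442).

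Among 15 tested translation factors and other mRNAs of the TOP class, 0 passed in either direction and the median was -0.0036. PABPC1, the poly(A)-binding protein, differed by -0.40 ± 0.13 (SE, adjusted p = 0.194 from limma, 0.0257 with the replicate block) and EIF3E, a subunit of an initiation factor, by -0.14 ± 0.08 (SE, adjusted p = 0.514). FAU, whose product contains a small subunit protein fused to a ubiquitin-like part, differed by 0.016 ± 0.089 (SE, adjusted p = 0.964).

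Of 45 ribosome biogenesis factors 0 passed, with a median of -0.094 and 12 above 0 (26.7%), against 47.9% of all genes. Array by array the groups overlapped, since their median deviation was -0.12 on mock replicate 1 and at lowest -0.10 on a LAP2β array. HEATR1, a factor in early processing of ribosomal RNA, differed by -0.30 ± 0.09 (SE, adjusted p = 0.181 from limma, 0.0477 with the replicate block), and TSR1, which acts on the maturing small subunit, by -0.30 ± 0.11 (SE, adjusted p = 0.253). Of 23 genes of RNA polymerases I and III and their factors 0 passed, with a median of -0.042. POLR3G, a subunit of RNA polymerase III, differed by -0.45 ± 0.11 (SE, adjusted p = 0.0664 from limma, 0.0053 with the replicate block), and POLR1C, which both polymerases share, by -0.24 ± 0.10 (SE, adjusted p = 0.292).

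Of 22 regulators of ribosomal protein mRNA 0 passed, with a median of -0.072 and 8 above 0 (36.4%), against 47.9% of all genes. The list was not split into genes that raise and genes that restrain this control, so its median gives no direction of regulation. MYC, a transcription factor that drives many ribosome genes, gave a mean of 13.00 ± 0.18 in LAP2β cells and 13.43 ± 0.10 in mock cells (SD, n = 3 each). Its log2 fold change was -0.43 ± 0.11 (SE, adjusted p = 0.0894 from limma, 0.0090 with the replicate block). RPS6KB1, an S6 kinase, differed by -0.32 ± 0.11 (SE, adjusted p = 0.201), and LARP1, named outside the rule because it binds the TOP sequence, by 0.18 ± 0.10 (SE, adjusted p = 0.472). MYC, MRPL13, PABPC1 and EIF3E, named above as lower, are all on chromosome 8. Other genes of that chromosome in these lists were also below 0, such as MRPS28 (-0.19), EIF3H (-0.135), BOP1 (-0.10) and RPS20 (-0.012). MRPL15 (0.069) and RPL7 (0.078) were above 0. Whether their shared location bears on these differences was not tested. No test set these lists against the ribosomal protein genes, and the scalings other than quantile normalization were not computed for them.

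The members were also grouped by their start sequence. The 39 tested genes with a C start and a run of at least 5 C or T had a median log2 fold change of 0.039, with 28 above 0, and the 17 with another start had a median of 0.014, with 12 above 0. RPL34 and RPL39, which both begin with such a run, stood at 0.42 and -0.050. These medians are a description, and brightness was not matched between the sets.

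Of the markers of the cell of origin, 8 of 8 epithelial genes were tested, while 0 of 6 fibroblast and 0 of 3 endothelial genes were detected on enough arrays. Among the leukocyte markers LYZ and CD68 were tested, and PTPRC and CD3E were detected on 0 arrays. The tested TMPO probe differed by -0.032 (adjusted p = 0.943 from limma), and the other 2 TMPO probes were detected on 0 arrays. One of those 2 is listed under another transcript than the tested probe, and which isoforms each probe reads was not tested, so that these values are no check of the LAP2β label. The study's own measurements of LAP2β by other methods were not used here.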

How the data were processed

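RNA of SNU638 cells (3 LAP2β and 3 mock samples) was labelled and hybridized to Illumina bead chips by the authors, who processed the scans in BeadStudio. They deposited linear intensity values before and after quantile normalization, each with a detection p-value, and the sources used here do not say whether background was subtracted. Of the deposited values, 2 columns of detection p-values matched no sample and were not used. Detection in mock replicate 3 was therefore set from its signal ranks and the median detection curve of the other 5 arrays.

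The intensity values before normalization were quantile normalized and log2 transformed with limma 3.58.1 in R 4.3.3. Probes with a detection p under 0.01 on at least 3 of 6 arrays were kept and fitted with lmFit and eBayes, all 13323 adjusted together by the Benjamini-Hochberg method. Where a gene had several probes, the brightest stood for it. Gene symbols came from the platform annotation for 27988 probes with 1 symbol, of which 27819 were matched by gene ID to a reference table. Pseudogene symbols (33 probes) were left out by rule. The script was tested on simulated data.

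Members and gene lists were chosen with earlier results of these data known. Named genes are members past the threshold, the 4 highest and 4 lowest of each subunit, paralogs with their partners, the 3 widest spreads between probes, and of each other list those past the threshold or else the 2 of smallest p. The replicate number was tested as a block because same-numbered arrays deviated together (correlations of deviations 0.54, 0.23 and 0.37 over all tested probes). The highest correlation of each LAP2β array with a mock array of another number was -0.30, 0.16 and 0.14. Over all tested probes the pairing was thus clear for number 1 and weak for number 2, and over the member probes it was weakest for number 3. The number of arrays limits the precision. The alternatives were background correction, other normalization, other filters, other eBayes settings, the block, leaving out each array, the mean over probes, and the methods' t-test.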

Additional observations from a re-analysis of the deposited data

How the results depend on the processing

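No ribosomal protein probe was called at an adjusted p of 0.05 under quantile normalization or any other setting, except with the replicate block, which called 3, among them RPL34 (adjusted p = 0.0076) and RPL14 (adjusted p = 0.0371), and for the methods' t-test without adjustment, which called 5. The count over all probes was 220. Of these 66.4% were higher. Scaling to a common median gave 537 (21.2% higher), and there were 521 with no normalization between arrays (20.9% higher). The count was 145 with neqc, 821 with the replicate block (55.1% higher), 1617 with the t-test at its own threshold, 1 after adjustment of that test, and 100 to 281 when 1 array was left out, lowest without mock replicate 2 and highest without mock replicate 1.

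With median scaling the median log2 fold change was -0.037 for both subunits together (paralogs left out), -0.034 for the large and -0.064 for the small subunit. With no normalization between arrays it was -0.052 for both subunits together, -0.049 for the large and -0.079 for the small subunit. The difference between subunits was 0.030 under both scalings. With members at a log2 signal of 15 or more left out, chosen after seeing the data, the medians were 0.13 for both subunits together, 0.12 for the large and 0.13 for the small subunit, and the difference was -0.0023. Leaving out 1 array gave a difference between subunits of 0.036 to 0.079, against 0.060, lowest without mock replicate 3 and highest without mock replicate 1. Without LAP2β replicate 1 it was 0.039. The median of both subunits together was 0.038 without mock replicate 1, against 0.025. It was 0.039 with paralogs included and 0.040 with the mean over a gene's probes. That mean gave 0.073 for the large and 0.012 for the small subunit.

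Of 97 member probes, 39 kept their sign in each of 18 settings and 58 did not. Settings that changed only the probe filter or the error estimate could not turn a sign. The cause of these changes was not tested. The number of arrays limits these values. An array block by slide was not run because no slide is given in the sources used here.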

Other observations

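The choice of members left out the probes of ribosomal protein pseudogenes. Of 33 such probes 18 were tested, and 15 had a log2 fold change (LAP2β minus mock) above 0 with quantile normalization; other scalings were not computed for them. Their log2 fold changes had a median of 0.088 and a range of -0.090 to 0.21, and 0 passed an adjusted p of 0.05 in limma (0 at an unadjusted p of 0.05). Their sequence is close to that of the genes they derive from, and whether these probes read the pseudogene or the gene was not tested.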
